A study of Arabidopsis thaliana with 32 samples.

Results

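A set of 8 light response genes linked to transcription factor HY5 was followed through Arabidopsis thaliana roots grown in orbit and on the ground. They were chosen by their gene identifiers, with the values of the listed ones in these data known. In all, 5162 genes are named in at least 1 of the 8 deposited comparison tables. The 8 members are the regulators HY5 (AT5G11260) and HYH (AT3G17609), the small B-box proteins BBX30 (AT4G15248) and BBX31 (AT3G21890), the early light-induced proteins ELIP1 (AT3G22840) and ELIP2 (AT4G14690), and the repressors RUP1 (AT5G52250) and RUP2 (AT5G23730). Of these, 6 were listed in at least 1 table and 2, RUP1 and RUP2, in none. The tables list a gene only where the authors' Cuffdiff test called it at a q-value of 0.05 or less, so a gene that is not listed is not shown to be unchanged.

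The study crossed 2 natural accessions, Col-0 and the one labelled WS, with 2 ages, 4 and 8 days, and 2 growth conditions, spaceflight and ground, in 8 groups of 4 libraries, 32 in all. All seedlings were light grown on plates of 0.5x MS medium in the same type of plant growth unit, under 100 to 135 µmol/m2/s of light. Ground seedlings grew in a chamber that repeated the temperature, carbon dioxide and lighting of the station with a delay of 48 h. Whole roots were cut from preserved seedlings and pooled, with 5 to 8 in each replicate of the younger age and 2 to 3 in each of the older. No group carried a transgene or a mutation by its labels. Each table gives 1 FPKM value (a level scaled to transcript length and library size) per group and none per library, so no spread of a level and no depth per library is known.

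HY5 is a bZIP transcription factor that accumulates in light, when phytochromes, cryptochromes and the UV-B receptor UVR8 hold back COP1, the ubiquitin ligase that otherwise has it degraded. HY5 and its homologue HYH bind DNA with an ACGT core such as the G-box, and in roots HY5 is known for acting in growth, nitrate uptake and pigment synthesis. ELIP1 and ELIP2 are thylakoid proteins related to light-harvesting proteins and made under light stress. BBX30 and BBX31 are small B-box proteins of light signalling, and RUP1 and RUP2 return UVR8 to its inactive form.

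The members with the largest changes were the ELIP pair and the BBX30 and BBX31 pair, and within each pair the DNA before the gene differed in its G-box. The 250 bases before the annotated start are shown for these 4 genes to compare them, 5′ to 3′ on the gene's strand, from RefSeq TAIR10.1, with each ACGT core or whole G-box (CACGTG) in capitals. The windows are chr3:8085670-8085919 on the minus strand for ELIP1, chr4:8417992-8418241 on the plus strand for ELIP2, chr4:8708591-8708840 on the plus strand for BBX30 and chr3:7709934-7710183 on the minus strand for BBX31.
ELIP1: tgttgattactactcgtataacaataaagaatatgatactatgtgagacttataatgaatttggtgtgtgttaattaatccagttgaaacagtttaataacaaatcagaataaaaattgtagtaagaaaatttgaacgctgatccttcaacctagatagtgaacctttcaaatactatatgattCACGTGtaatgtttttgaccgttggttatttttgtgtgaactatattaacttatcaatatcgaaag
ELIP2: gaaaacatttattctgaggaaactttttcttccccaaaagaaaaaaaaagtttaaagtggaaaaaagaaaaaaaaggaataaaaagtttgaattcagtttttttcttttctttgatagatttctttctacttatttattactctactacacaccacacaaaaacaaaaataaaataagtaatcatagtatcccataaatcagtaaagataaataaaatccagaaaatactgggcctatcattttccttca
BBX30: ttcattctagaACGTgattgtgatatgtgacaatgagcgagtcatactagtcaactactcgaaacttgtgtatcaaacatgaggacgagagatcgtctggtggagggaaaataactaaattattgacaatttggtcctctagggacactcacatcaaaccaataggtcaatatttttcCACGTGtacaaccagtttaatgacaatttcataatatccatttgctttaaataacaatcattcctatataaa
BBX31: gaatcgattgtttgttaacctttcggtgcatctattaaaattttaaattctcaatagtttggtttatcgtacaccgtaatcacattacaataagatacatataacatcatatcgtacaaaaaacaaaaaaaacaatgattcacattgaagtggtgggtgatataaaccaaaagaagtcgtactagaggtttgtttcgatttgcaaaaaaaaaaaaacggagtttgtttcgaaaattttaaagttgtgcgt
ELIP1 held 1 G-box, beginning 66 bases before the start, and BBX30 held 1 beginning 72 bases before it. ELIP2 and BBX31 held no ACGT core in these windows, which says nothing of sequence outside them. Over all 8 members, 2 had a G-box against 6.49% of the 27443 promoters of the same length, read on both strands. The shorter core ACGT, which every G-box contains, was in 6 members, namely ELIP1, BBX30, HY5, HYH, RUP1 and RUP2, against 44.1% of all promoters. The HY5 window, alone among the members, overlaps another coding gene, AT5G11270. The light-related I-box (GATAAG, either strand), a motif added after the values were seen, was in 1 member, ELIP1, against 12.3% of all promoters. A match describes the letters and is no evidence of binding.

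**Figure D1:**
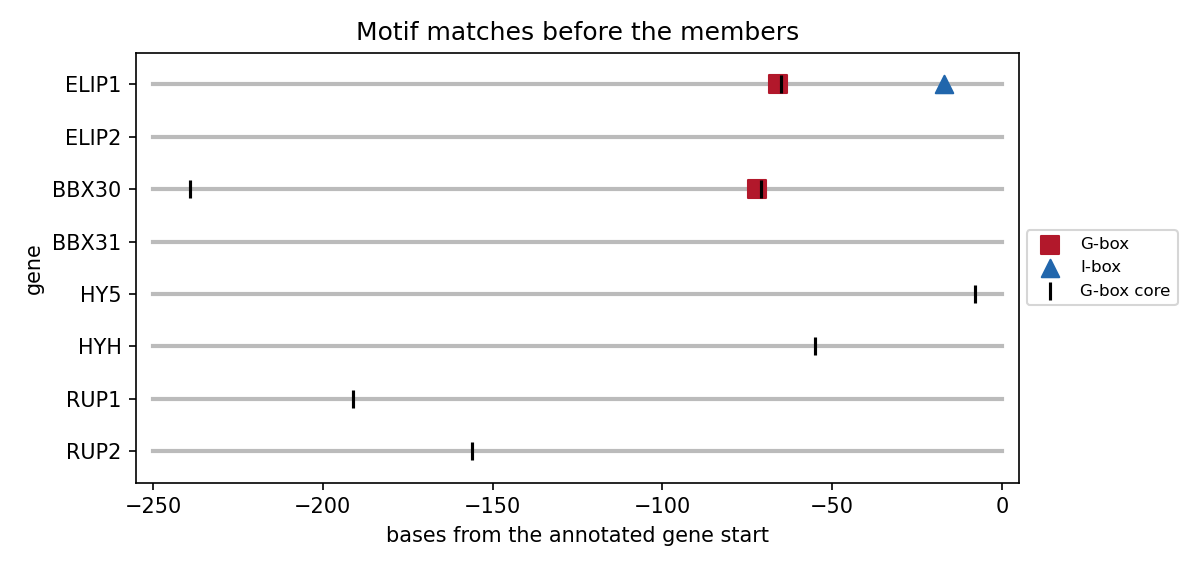
Motif matches in the 250 bases before each of the 8 genes. The horizontal axis is the distance in bases from the annotated start, squares are G-boxes, vertical ticks are G-box cores and the triangle is an I-box; the G-boxes of ELIP1 and BBX30 lie 66 and 72 bases before the start.

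In 4 day Col-0 roots, 6 of the 8 members fell in flight and 0 rose, beside 4.11% of the 19612 loci tested that were called lower and 7.21% called in either direction in the authors' deposited table. Because the members were chosen on these values, nothing is read from that count. The changes fell into a large class, BBX30, ELIP1, ELIP2 and BBX31, each more than 3-fold lower, and a small class, HY5 and the locus that holds HYH. The median of the 6 was -1.95 on the log2 scale, where the median of all loci called lower in that table was -0.70.

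HY5 stood at 65.0 FPKM on the ground and 44.5 FPKM in flight at 4 days in the authors' deposited table. Its log2 fold change was -0.55 ± 0.30, with 4 libraries per group and a Cuffdiff q-value of 0.00585 in the authors' deposited table. Here and throughout, ± gives an error worked back from Cuffdiff's statistic, not a spread between libraries. At 8 days HY5 was listed at 78.9 FPKM on the ground and 53.9 FPKM in flight in the authors' deposited table, again a log2 fold change of -0.55, with an error of ± 0.21 and a Cuffdiff q-value of 0.00263. The flight level of HY5 was thus about 1.46-fold below the ground level at either age. Whether HY5 acts on the other members in these roots was not tested.

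HYH shares its listed locus with the rhomboid-like gene RBL14 (AT3G17611), and the interval of 27.4 kb spans 16 annotated genes, so its value cannot be assigned to HYH alone. That locus was listed at 186 FPKM on the ground and 121 FPKM in flight at 4 days in the authors' deposited table. Its log2 fold change was -0.62 ± 0.42, with a Cuffdiff q-value of 0.0428 in the authors' deposited table, the nearest to the threshold of any member. It was listed in no other table.

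BBX30 had the largest fold of the members at both ages. It went from 31.2 FPKM on the ground to 4.75 FPKM in flight at 4 days, 6.58-fold lower, in the authors' deposited table. The log2 fold change of -2.72 ± 1.32 carried the widest error of the group and a Cuffdiff q-value of 0.0385 in the authors' deposited table. At 8 days BBX30 went from 41.5 FPKM on the ground to 8.92 FPKM in flight, a log2 fold change of -2.22 ± 0.67 with a Cuffdiff q-value of 0.00263 in the authors' deposited table. The row names BBX30 alone, but its interval of 33.1 kb spans 17 annotated genes, including the neighbouring B-box gene BBX9, and whether reads of those genes entered the value was not tested. No other listed row has that interval.

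BBX31, a relative of BBX30, stood below it in each of the 4 Col-0 groups. At 4 days it was listed at 12.5 FPKM on the ground and 3.70 FPKM in flight, a log2 fold change of -1.75 ± 0.72 with a Cuffdiff q-value of 0.00185 in the authors' deposited table. At 8 days it was listed at 15.6 FPKM on the ground and 4.48 FPKM in flight, a log2 fold change of -1.80 ± 0.58 with a Cuffdiff q-value of 0.00263 in the authors' deposited table. The BBX31 interval of 3.17 kb also reaches into BBX10, the B-box gene beside it. BBX30 was 2.5 times the level of BBX31 on the ground and 1.28 times in flight at 4 days, and 2.66 and 1.99 times at 8 days, per length in FPKM. No error can be set on these ratios.

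ELIP1 and ELIP2 had smaller errors than the B-box pair and moved side by side. In the authors' deposited table for 4 days, ELIP1 went from 97.4 FPKM on the ground to 18.2 FPKM in flight, 5.36-fold lower, with a log2 fold change of -2.42 ± 0.34. In the same authors' deposited table ELIP2 went from 130.4 FPKM to 29.3 FPKM, 4.45-fold lower, with a log2 fold change of -2.15 ± 0.31. The log2 changes of the pair differ by less than either error. Both genes were read in the same libraries, so these errors do not measure the error of that difference. The Cuffdiff q-value of each was 0.00185, the smallest in that table.

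The ELIP pair was also lower in flight at 8 days, by a smaller fold. ELIP1 was listed at 106.2 FPKM on the ground and 35.8 FPKM in flight, a log2 fold change of -1.57 ± 0.23 in the authors' deposited table. ELIP2 was listed at 113 FPKM on the ground and 43.9 FPKM in flight, a log2 fold change of -1.36 ± 0.22 in the authors' deposited table. The Cuffdiff q-value of each was 0.00263. The transcripts of ELIP1 and ELIP2 were identical at 74.6% of 882 aligned bases, with a longest shared run of 26 bases, and those of BBX30 and BBX31 at 74.3% of 630 aligned bases, with a longest shared run of 13. How reads shared by such pairs were counted is not given in the labels.

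**Figure D2:**
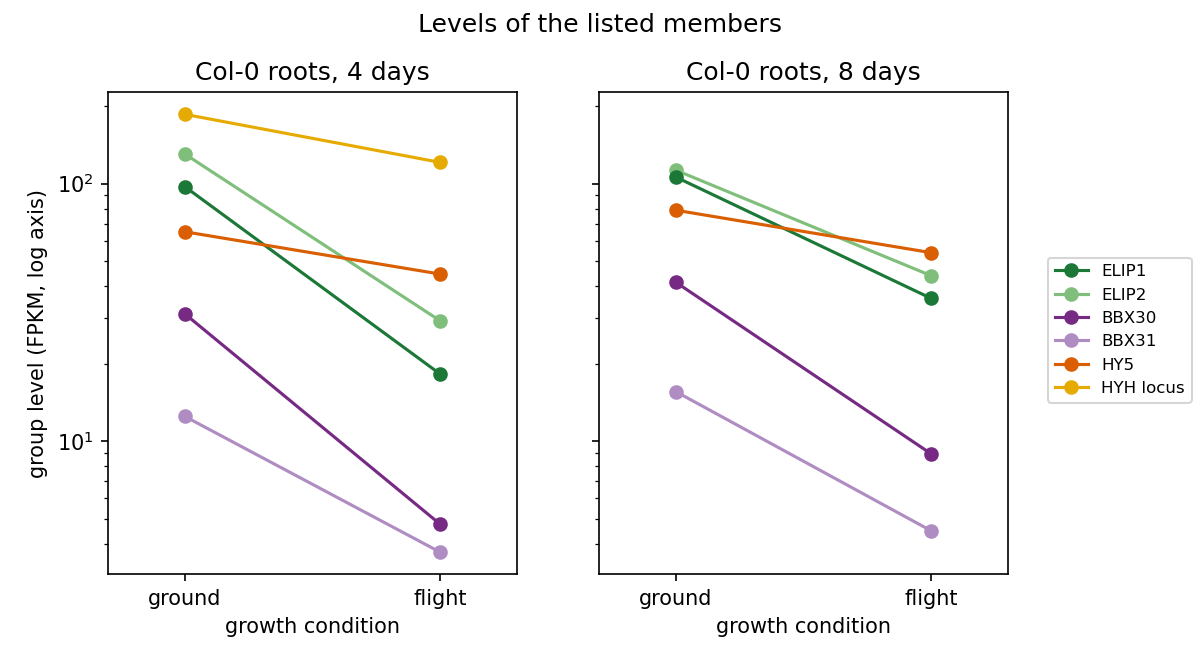
Group levels of the listed members in Col-0 roots, in FPKM on a log axis, for ground and flight at 4 days (left) and 8 days (right). Each point is 1 deposited group value of 4 libraries, without an error; at 4 days ELIP1 goes from 97.4 to 18.2 FPKM while HY5 goes from 65.0 to 44.5.

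In 8 day Col-0 roots, 5 of the 8 members fell and 0 rose, beside 2.8% of the 20035 loci tested that were called lower and 4.05% called in either direction in the authors' deposited table. These were the members named above other than HYH, and their median was -1.57 on the log2 scale against -0.53 for all loci called lower there. The order of the levels differed between conditions at each age. Leaving aside the shared HYH locus, on the ground ELIP2 and ELIP1 stood above HY5, ELIP1 at 1.5 times its level at 4 days and 1.35 times at 8 days, and BBX30 and BBX31 stood below it. In flight HY5 stood above ELIP2 and ELIP1, with ELIP1 at 0.408 times the level of HY5 at 4 days and 0.664 times at 8 days. Without an error of the levels, it cannot be said which neighbours in these orders differ beyond their spread.

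With age, ELIP1 and ELIP2 rose in flight, and no member was listed as changed on the ground. In the authors' deposited table of 8 against 4 days in flight, ELIP1 rose from 18.8 to 35.0 FPKM, a log2 fold change of 0.89 ± 0.33 with a Cuffdiff q-value of 0.00174. ELIP2 rose from 30.3 to 42.8 FPKM, a log2 fold change of 0.50 ± 0.29 with a Cuffdiff q-value of 0.0193 in the authors' deposited table. These are 2 of 8 members, beside 3.33% of 20007 loci called higher, 3.45% lower and 6.78% in either direction in that table. At a q-value of 0.01 ELIP1 alone would be called. In the table of 8 against 4 days on the ground, 0 of 8 members were listed by Cuffdiff, beside 11.2% of 19905 loci called in either direction, 5.69% higher and 5.54% lower. The unadjusted p-values of members that are not listed are not known.

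The 4 day and 8 day flight comparisons share no library, so the change of each member can be set against its own value at the other age. From 4 to 8 days the log2 flight change of ELIP1 moved by 0.85 ± 0.41 towards zero, with a 95% interval of 0.0524 to 1.65. That of ELIP2 moved by 0.79 ± 0.38, with a 95% interval of 0.0503 to 1.53. For HY5 the difference between ages was 0.00 ± 0.36, with an interval of -0.71 to 0.71. For BBX30 it was 0.50 ± 1.48 and for BBX31 -0.04 ± 0.93, so a difference of the ELIP size would lie within the error of either. These intervals take the implied errors as known and are given as a description, since the members were chosen on these changes. Set side by side across tables that were normalised separately, the ground level of ELIP1 was 97.4 FPKM at 4 days and 106.2 FPKM at 8 days, a log2 difference of 0.12, in the authors' deposited tables. The ground level of ELIP2 differed the other way, with 130.4 FPKM at 4 days and 112.9 FPKM at 8 days, a log2 difference of -0.21, in the authors' deposited tables. Their flight levels were higher at 8 days by 0.98 for ELIP1 and 0.58 for ELIP2 on the log2 scale. In these levels, the smaller flight change of ELIP2 at 8 days goes with a lower ground level as well as a higher flight level. ELIP2 was not listed for 8 against 4 days on the ground, so that lower ground level is not a called change. No error can be set on these differences of levels.

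**Figure D3:**
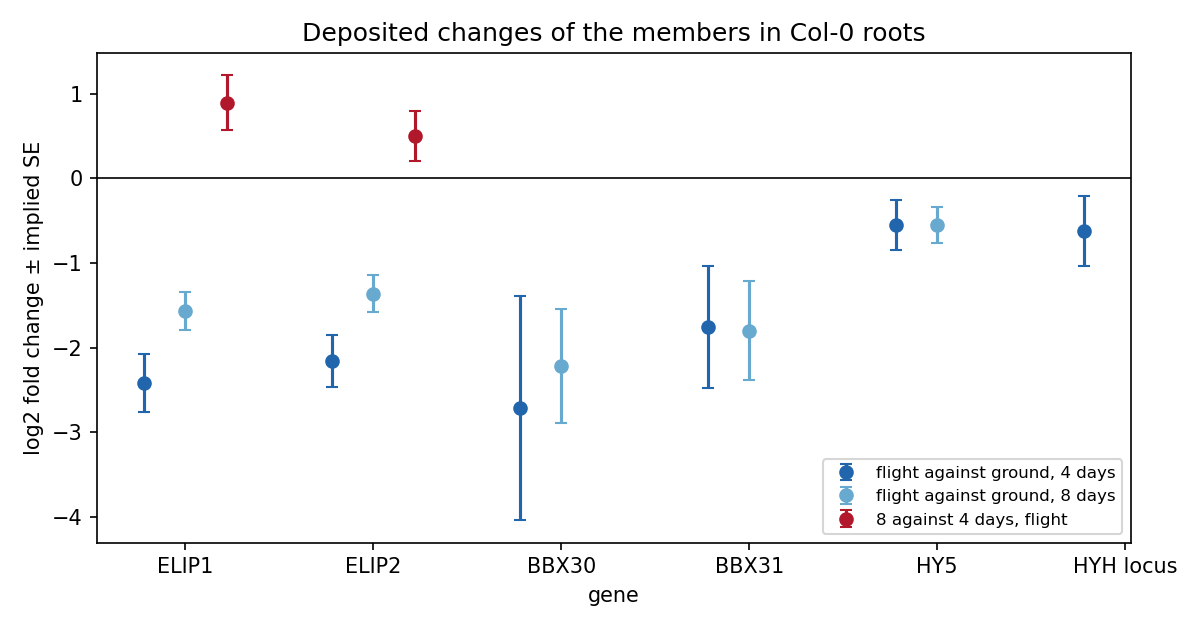
Deposited log2 fold changes of the members in 3 Col-0 comparisons, with bars of 1 implied standard error. All flight changes lie below 0, from -2.72 for BBX30 to -0.55 for HY5, and the age changes of ELIP1 and ELIP2 in flight lie above 0.

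In WS roots, none of the 8 members was listed by Cuffdiff in any of the 4 tables. The share of loci called in either direction was 0.715% of 17899 for flight at 4 days and 5.11% of 17365 for flight at 8 days in the authors' deposited tables. For 8 against 4 days it was 6.08% of 17695 in flight, 2.65% higher and 3.42% lower, in the authors' deposited table. On the ground it was 6.13% of 18017, 2.85% higher and 3.27% lower, in the authors' deposited table. The levels of the members in WS are therefore not known, and the flight change was not compared between accessions. Among listed WS loci with 30 to 150 FPKM in the higher group, a range that takes in the ground levels of ELIP1 and ELIP2 in Col-0, the smallest log2 change was 0.64 at 4 days and 0.30 at 8 days. The median sizes were 1.13 for 60 such loci at 4 days and 0.55 for 317 at 8 days in the authors' deposited tables. The positions of WS rows differ from those of Col-0, with 5.16% of 2929 rows of 1 gene overlapping that gene in the reference against 100.0% of 5435 rows in Col-0, so WS genes are known by their identifiers alone.

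RUP1 and RUP2, the negative regulators of UVR8, were listed in none of the 8 tables, and no level of either is known. UVR8 itself was not listed either.

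Among 111 other genes of the light pathway in 9 lists, 19 fell and 1 rose in flight in 4 day Col-0 roots, beside 4.11% of loci called lower and 3.1% called higher in that table. In 8 day Col-0 roots 11 fell and 0 rose, beside 2.8% lower and 1.26% higher. In WS roots 1 fell and 0 rose at 4 days, beside 0.363% lower and 0.352% higher, and 3 fell and 1 rose at 8 days, beside 2.75% lower and 2.36% higher. The median log2 change of those listed was -0.77 at 4 days and -0.94 at 8 days in Col-0, smaller in size than that of the members, which were chosen on it. All changes given with ± below are on the log2 scale. The counts are a description, since the lists were drawn up with earlier results in view.

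Of 29 other B-box genes, 2 fell at each age in Col-0 flight and 27 were not listed. Of all loci, 4.11% were called lower at 4 days and 2.8% at 8 days, and nothing is read from so small a count. BBX24, also known as STO, a B-box protein that acts in UV-B and light signalling, went from 239 to 88.7 FPKM at 4 days and from 264 to 137 FPKM at 8 days in the authors' deposited tables. Its log2 fold changes were -1.43 ± 0.44 and -0.95 ± 0.26 in the authors' deposited tables, for an interval of 54.1 kb that spans further genes. BBX6, a CONSTANS-like gene, changed by -0.77 ± 0.38 at 4 days and -0.94 ± 0.30 at 8 days on the log2 scale in the authors' deposited tables. BBX9 and BBX10, the neighbours of BBX30 and BBX31, were not listed as rows of their own.

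Among the light-harvesting-like relatives of the ELIPs, 3 of 6 fell in 4 day Col-0 flight, 2 in 8 day Col-0 flight and 1 in 8 day WS flight, and none rose. The shares of all loci called lower there were 4.11%, 2.8% and 2.75%, and nothing is read from counts in a list this short. PSBS, which sets the heat dissipation of excess light in photosystem II, changed by -0.93 ± 0.35 at 4 days and -0.94 ± 0.28 at 8 days in Col-0 in the authors' deposited tables. SEP2, a stress-enhanced protein of the same superfamily, changed by -0.75 ± 0.27 and -0.40 ± 0.19 in the authors' deposited tables. OHP2, a one-helix protein of photosystem assembly, changed by -0.69 ± 0.38 in 4 day Col-0 and by -0.63 ± 0.32 in 8 day WS in the authors' deposited tables.

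SIG5, a plastid sigma factor induced by blue light, was the 1 gene of 5 UV-B and blue light outputs that fell in flight. It went from 19.7 to 5.95 FPKM at 4 days, a log2 fold change of -1.72 ± 0.37, and from 13.3 to 6.39 FPKM at 8 days, -1.05 ± 0.30, in the authors' deposited tables. The flavonoid list of 17 genes had 7 lower at 4 days, 2 lower at 8 days and 0 higher in Col-0 flight. Beside these counts and that of SIG5, 4.11% of all loci were called lower at 4 days and 2.8% at 8 days. MYB12, the flavonol regulator and a known HY5 target, went from 87.3 to 25.7 FPKM at 4 days and from 63.2 to 28.4 FPKM at 8 days in the authors' deposited tables. The enzyme genes CHI and FLS1 changed at 4 days by -0.91 ± 0.49 and -0.87 ± 0.40 in the authors' deposited table, over intervals of 88.6 and 41.8 kb. UGT78D2, a flavonoid glucosyltransferase gene, changed by -0.83 ± 0.29 and -0.38 ± 0.21 in the authors' deposited tables. In WS roots the chalcone isomerase-like gene CHIL, named after its value was seen, changed at 8 days by -0.40 ± 0.21 on the log2 scale in the authors' deposited table.

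Photoreceptor genes, the COP1 and DET1 machinery and the PIF and far-red regulators were followed in short lists. In 4 day Col-0 flight 4.11% of all loci were called lower and 3.1% higher, and nothing is read from counts in lists this short. Of 10 photoreceptor genes 1 fell in 4 day Col-0 flight, PHYB, the main red light receptor, with a log2 change of -0.66 ± 0.37 in the authors' deposited table. Of 9 genes of the COP1 and DET1 machinery 1 fell there, DET1, with a log2 change of -0.55 ± 0.33, and DET1 rose with age in flight by 0.77 ± 0.29 in the authors' deposited tables. COP1 was not listed in any table. Of 11 PIF and far-red regulators, PIF5 rose at 4 days by 1.75 ± 0.84, from 0.753 to 2.52 FPKM, and HFR1 changed at 8 days by -1.10 ± 0.39 in Col-0 in the authors' deposited tables. LAF1, a MYB factor of far-red light signalling, changed at 4 days in Col-0 by -0.74 ± 0.47 and in WS by -1.70 ± 0.79, and at 8 days in WS by -0.92 ± 0.44 in the authors' deposited tables.

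Of 8 HY5-linked nutrient genes, 1 fell in 4 day Col-0 flight, beside 4.11% of all loci called lower. It was the nitrate reductase gene NIA1, with a log2 change of -1.18 ± 0.28 in the authors' deposited table. The circadian clock list held 16 genes, of which 2 were lower at 4 days and 3 at 8 days in Col-0 flight. Of all loci, 4.11% were called lower at 4 days and 2.8% at 8 days, and nothing is read from counts in lists this short. LUX changed by -0.85 ± 0.39 and -0.44 ± 0.24, and LHY by -0.75 ± 0.37 and -0.42 ± 0.26, at 4 and 8 days in the authors' deposited tables. The interval of LUX covers 16.3 kb. PRR9 changed at 8 days by -2.43 ± 0.90, from 2.22 to 0.411 FPKM in the authors' deposited table. In WS the clock gene GI rose at 8 days by 0.72 ± 0.42 in the authors' deposited table.

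**Figure D4:**
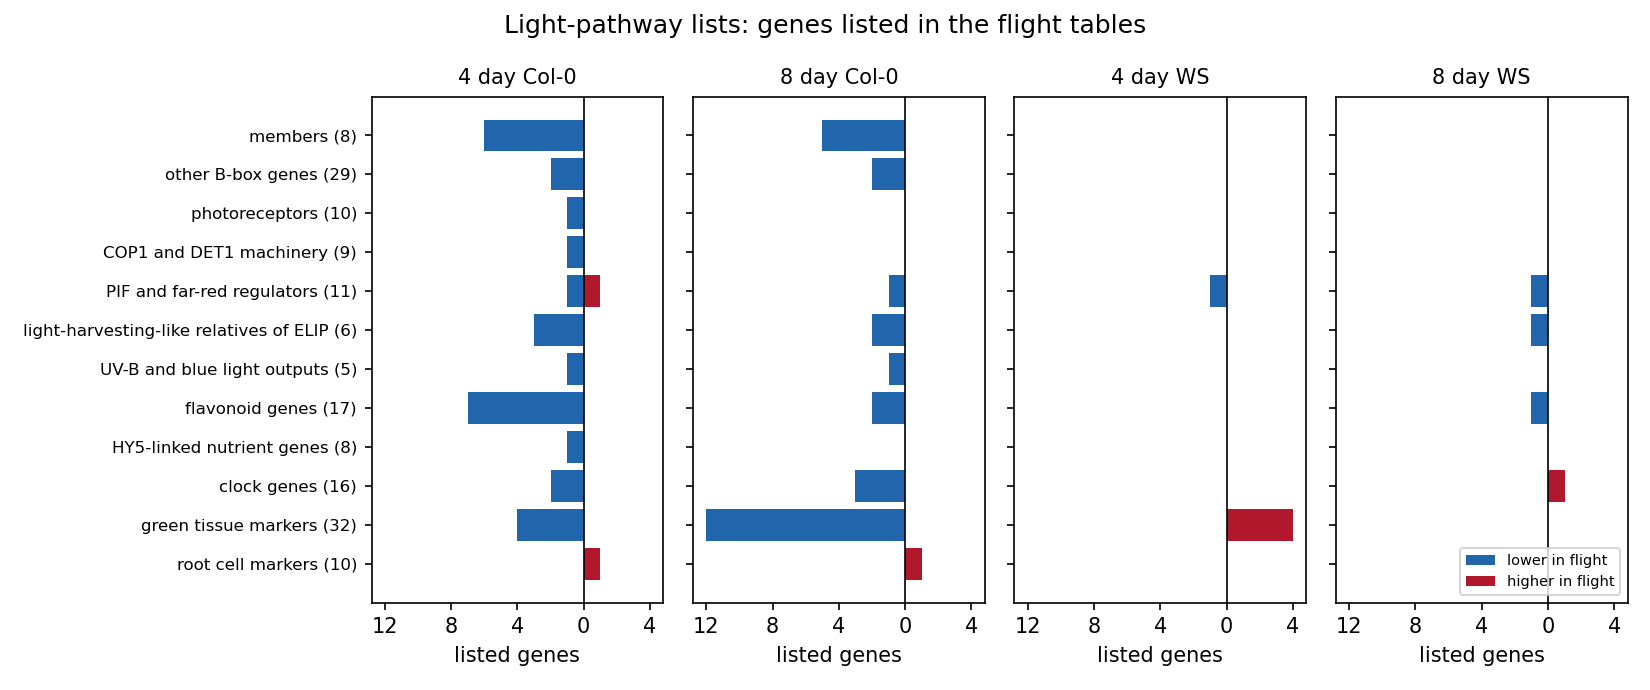
Number of genes of each list called lower (left, blue) or higher (right, red) in each of the 4 flight comparisons, with list sizes in parentheses. The members show 6 and 5 genes lower in Col-0 and none in WS, while green tissue markers show 12 lower in 8 day Col-0 and 4 higher in 4 day WS.

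**Figure D5:**
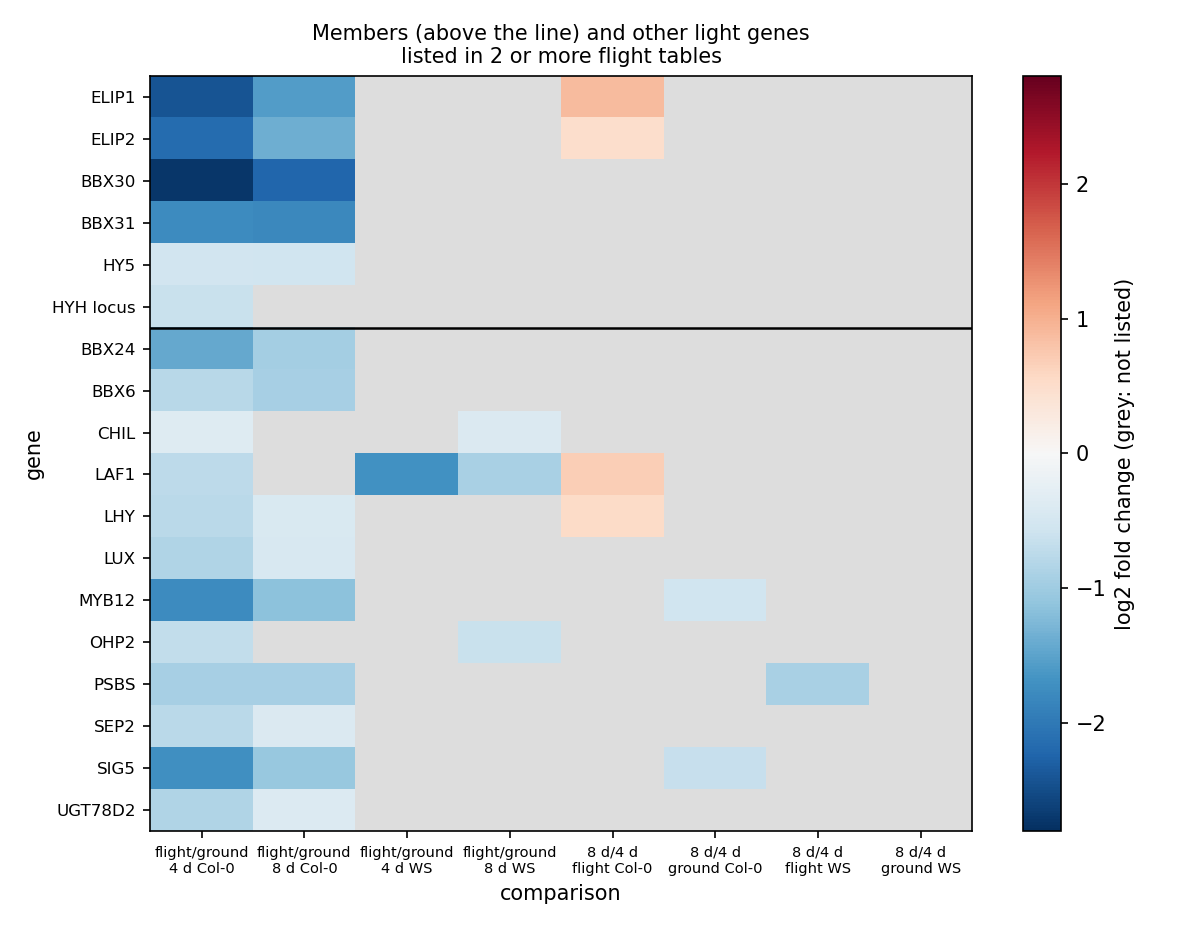
Log2 fold changes in the 8 comparisons for the 6 listed members (above the line) and for genes of the other light lists called in 2 or more flight comparisons. Blue is lower and red higher in flight or at 8 days, and grey means not listed; the member rows are grey throughout WS.

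Markers of green tissue moved with some of these changes. The list held 32 genes, of which 4 were lower and 0 higher in 4 day Col-0 flight, from -1.42 to -0.35 on the log2 scale. Of all loci there, 4.11% were called lower and 3.1% higher. The summed level of the 4 markers went from 312 FPKM on the ground to 236 FPKM in flight in the authors' deposited table. Each sum here covers only the markers listed in that comparison, so it follows the direction of their calls. Sums of different comparisons cover different genes. In 8 day Col-0 flight 12 fell and 0 rose, from -2.43 to -0.46, beside 2.8% of all loci called lower and 1.26% higher. The sum of those 12 went from 899 to 525 FPKM in the authors' deposited table. LHCB2.1, a light-harvesting protein gene, changed by -0.78 ± 0.49 at 4 days and -2.17 ± 0.48 at 8 days in the authors' deposited tables. LHCB2.2 changed by -2.43 ± 0.93 at 8 days, from a low level of 3.43 FPKM to 0.634 FPKM, in the authors' deposited table. From 4 to 8 days markers fell in every age comparison, and 0 rose in any. On the ground 3 fell in Col-0, beside 5.54% of all loci called lower, and 4 in WS, beside 3.27%. In WS flight 6 fell, beside 3.42%. In Col-0 flight from 4 to 8 days, when ELIP1 and ELIP2 rose, 7 markers fell, beside 3.45% of all loci called lower and 3.33% higher. These 7 genes have 8 rows there, since RBCS1A, of the Rubisco small subunit, is listed in 2 rows over the same interval, and the sum over all 8 rows went from 445 to 219 FPKM in the authors' deposited table. In 4 day WS flight 4 markers, all genes of the Rubisco small subunit, rose, beside 0.352% of all loci called higher and 0.363% lower. Their sum went from 221 to 474 FPKM in the authors' deposited table, while no member was listed. RBCS3B rose by 1.61 ± 0.63 and RBCS1B by 1.44 ± 0.60 there in the authors' deposited table, and these near-identical copies can share reads. No listed marker was at 0 FPKM in these comparisons, and markers that are not listed have no known level. In bulk roots, fewer cells of a type and less RNA per cell cannot be told apart, and the part of green cells in the changes of the members was not tested.

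Of 10 root cell markers, WER, a regulator of root epidermal cell fate, was listed in 3 tables at 39.6 to 86.9 FPKM, and SCR, of the endodermis and stem cell niche, in 4 tables at 6.35 to 18.6 FPKM. WER, whose interval covers 19.1 kb, rose in 4 day Col-0 flight by 0.92 ± 0.60 and SCR in 8 day Col-0 flight by 0.40 ± 0.24 in the authors' deposited tables. COBL9, of root hairs, was listed in 1 table, and the other 7 markers in none.

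The genes most like ELIP1 in pattern were sought among 4539 other genes with a row of their own, by the number of the 8 tables with the same state (higher, lower or not listed) and then by the root mean square difference of log2 changes. The match with all 8 tables was shared by 9 genes, and by ELIP2 among the members. Among the nearest were AT2G40460, of the major facilitator transporter superfamily, with a difference of 0.78, and AT2G44940, of a DNA-binding superfamily, with 0.80. AT2G03200, of the aspartyl protease family, had a difference of 0.93 and AT5G23920 one of 1.05. For BBX30, whose pattern was lower in flight at both ages in Col-0 and no other listing, 65 genes matched in all 8 tables, and BBX31 and HY5 among the members. The nearest were AT4G18422 with a difference of 0.58, AT1G17400 with 0.82, AT3G17130, of the invertase and pectin methylesterase inhibitor superfamily, with 0.82, AT3G52740 with 1.16 and cPT5 (AT5G58780), a prenyltransferase, with 1.19. The measure rests on 3 tables for ELIP1 and 2 for BBX30 in which values are listed.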

How the data were processed

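The values came from 8 tables of the authors' own comparisons, each listing the loci they called. Per the labels' protocols, each library started from 10 ng of RNA, copied by a template-switching kit and amplified over 8 PCR cycles. Such kits do not mark the strand, so antisense reads cannot be told apart. Per the submitters' processing notes, Cuffdiff, Cufflinks, Picard, STAR 2.5.1b, Trimmomatic 0.36 and FastQC 0.11.2 were used, and TAIR10 is the build named. Their settings and order of use are not stated by any label or header.

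The deposited FPKM values are the authors' group levels, scaled within each table. The authors' log2 fold changes compare those levels, and their sign was set here so that positive means higher in flight or at 8 days. The deposited test statistic is the authors' Cuffdiff score per locus. The deposited p-values and q-values are the authors' own, adjusted by them within each table.

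The standard error was the size of the fold change over that of the statistic. In 3 of the 13 rows of members the statistic was under 1.96 in size although the authors called the locus, so these errors are wide beside the deposited p-values. The number of loci tested was worked back from the largest p-value, its rank and its q-value, a step tested on simulated data.

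No test was run on the members, since they and the lists were chosen with earlier results of these data known. A further 3 list genes whose symbol did not match the reference table were dropped. Up to 4 called genes per list were named by size of flight change, and the 5 nearest neighbours each for ELIP1 and BBX30, of which 1 is not reported here. Genes named as not listed were chosen after their values were seen. Promoters and gene positions came from RefSeq TAIR10.1 with Python 3.11.15, pandas 2.3.3 and Biopython 1.88. Alternatives were a q-value of 0.01, a log2 change of 1, a pseudocount of 1 FPKM, a minimum of 5 FPKM, and loci of several genes left out.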

Additional observations from a re-analysis of the deposited data

How the results depend on the processing

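Each alternative could only remove called members, so comparisons with 0 called could not change. In 4 day Col-0 flight against ground, 6 members became 4 at a q-value of 0.01, without BBX30 and the HYH locus. That count was also 4 at a log2 change of 1, with or without a pseudocount. In 8 day Col-0 flight against ground, 5 became 4 at a log2 change of 1, with or without a pseudocount. These counts stayed at or within 1.5 times of the reported ones, with one comparison as the exception. For 8 against 4 days in Col-0 flight, 2 members were called, 1 (ELIP1) remained at a q-value of 0.01, and 0 had a log2 change of 1 or more, with or without a pseudocount of 1 FPKM. ELIP2 was lost at the stricter q-value because its own was 0.0193. Both genes were lost at the log2 limits because their changes were 0.89 and 0.50. Members with the G-box numbered 2, and those with its core ACGT 6, as the core is contained in the G-box. All 13 member changes moved by less than 1 implied standard error with the pseudocount, and so did the 2 that could be recomputed from levels of the other tables; for the 11 flight changes that alternative gave no value, because no member is listed in the ground table of the 2 ages. No paired analysis was possible because the tables hold group values alone, and leaving out single replicates was not run for the same reason. Depth per library is unknown, so the level at which a member would go undetected cannot be given.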

Other observations

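Some light-related genes outside the members changed with age. NRT2.1, a high-affinity nitrate transporter gene that HY5 is known to act on, was lower at 8 than at 4 days in all 4 age comparisons of the authors' deposited tables. Its log2 fold change was -3.17 ± 1.01 in flight and -2.72 ± 0.73 on the ground in Col-0. In WS it was -2.04 ± 0.76 in flight and -1.25 ± 0.72 on the ground. The levels of NRT2.1 were low, from 2.82 to 0.313 FPKM in Col-0 flight and from 4.38 to 0.662 FPKM on the Col-0 ground. In WS they went from 5.54 to 1.35 FPKM in flight and from 4.41 to 1.86 FPKM on the ground. NRT2.1 was not listed in any flight against ground comparison. NIA1 rose with age in Col-0 flight by 1.33 ± 0.24 in the authors' deposited table. PIF5 changed there by -3.39 ± 1.32, from 2.62 to 0.250 FPKM, in the authors' deposited table. These genes were chosen after their values were seen, and the difference between flight and ground was not tested for them.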
